A study of Mus musculus with 9 samples.

Results

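The 10 genes described here make and control the hormones of the Leydig cell, the androgen-producing cell that lies between the seminiferous tubules. They are Star, Cyp11a1, Cyp17a1, Hsd3b1, Hsd3b6, Hsd17b3, Lhcgr, Insl3, Nr5a1 and Srd5a1, chosen by symbol, and all 10 were found among the 22337 genes of the table. RNA of whole testes of mice aged 3 weeks was sequenced in 9 samples, each called a testis below. They were 3 wild-type, 3 heterozygous (Piwil4 WT/R264W) and 3 homozygous (Piwil4 R264W/R264W) samples of a CRISPR-Cas9 knock-in line made in C57BL/6 zygotes. R264W replaces an arginine by tryptophan in the PAZ domain of PIWIL4, which male germ cells use with small RNAs to silence transposons. The allele is in the germline, so germ cells and somatic cells both carry it, and no group was treated. Replicate numbers are those of the labels, which name no batch and do not say whether the samples of a genotype came from separate animals, so p-values measure the spread between these samples.

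In the Leydig cell, luteinizing hormone acts on its receptor Lhcgr and raises cyclic AMP. Star then brings cholesterol into the mitochondrion, where Cyp11a1 cleaves its side chain to give pregnenolone. Hsd3b and Cyp17a1 carry pregnenolone to androstenedione, Hsd17b3 makes testosterone from it and Srd5a1 reduces testosterone to dihydrotestosterone. Nr5a1 is the nuclear receptor that binds the promoters of many of these genes, and Insl3 encodes a peptide hormone that Leydig cells secrete. Around the age sampled here the fetal Leydig cells of the mouse are being replaced by adult ones, while the germ cells pass through their first wave of spermatogenesis.

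Depth was similar, with 17.96 to 24.3 M estimated counts in a testis. CPM, the counts of a gene for each 1 M counts of its library after TMM scaling, is used below for differences between testes of the same gene. FPKM, which divides by transcript length, is used for levels of different genes. The stage reached by the germ cells was read from a round spermatid score, the mean log2 CPM of 18 spermatid genes, which ran from 0.48 to 5.81 over the testes. Its mean was 3.04 ± 2.48 (SD, n = 3) in wild-type testes, 2.82 ± 2.18 in heterozygotes and 3.68 ± 1.80 in homozygotes, so the spread within genotypes was wider than the gaps between them. Markers of tissues that can adhere to a testis were uneven. The summed level of 7 epididymis markers was 54.2 CPM in Piwil4 R264W/R264W testis 1 against at most 11.8 in the other testes, and that of 7 adipose markers was 27.5 CPM in Piwil4 R264W/R264W testis 3 against at most 14.3. The sum of 7 muscle markers was 5.51 CPM in Piwil4 R264W/R264W testis 2 against at most 1.88. The sequence change cannot be checked in gene-level values, where Piwil4 itself had between 18 and 46 counts per testis. In RNA of a whole testis, fewer Leydig cells and less RNA per Leydig cell cannot be told apart.

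Hsd3b1 and Hsd3b6 are near copies of each other, and their ratio is compared below. The start of both coding sequences is shown because coding reads of the pair can be told apart only at bases that differ. Untranslated parts were not compared. The sequences are from the GENCODE annotation of GRCm38, positions 1 to 60 counted from the start codon, with capitals at the 7 bases that differ.
Hsd3b1: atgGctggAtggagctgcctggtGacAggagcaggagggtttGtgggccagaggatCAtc
Hsd3b6: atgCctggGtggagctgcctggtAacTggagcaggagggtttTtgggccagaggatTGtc
Over the 1119 coding bases 90.0% are identical, and the longest identical run is 72 bases, shorter than the 150 bp reads. Hsd3b6 is closer to Hsd3b2 (94.4%) and Hsd3b3 (94.5%), with identical runs of up to 144 bases. Hsd3b2 had at most 2.23 CPM and Hsd3b3 at most 1 count in any testis, so few reads were assigned to those copies. Hsd3b1 lies at chr3:98852194-98859794 and Hsd3b6 at chr3:98805504-98814443, both on the minus strand of GRCm38.

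The other members lie at chr8:25806555-25815982 (Star, plus strand), chr9:58006411-58027023 (Cyp11a1, plus), chr19:46667165-46673172 (Cyp17a1, minus), chr13:64058266-64089230 (Hsd17b3, minus), chr17:88716481-88791990 (Lhcgr, minus), chr2:38692656-38714542 (Nr5a1, minus) and chr13:69573449-69611442 (Srd5a1, minus) of GRCm38. Insl3, with 2 exons, lies at chr8:71689214-71690575 inside the last part of Jak3 on the same strand, and its estimated counts are not whole numbers, so reads were shared out between the genes. Jak3 had between 92.4 and 241 counts per testis against 448 to 2558 for Insl3. Nr5a1 and Srd5a1 overlap genes on the opposite strand (Nr5a1os and Nsun2), whose reads can be told apart only by counting with strand. Cyp11a1 and Srd5a1 also overlap genes on the same strand (Gm17322 and Gm17108), where counting with strand does not help.

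RefSeq promoters of GRCm38.p6 were matched for 7 members, with Cyp11a1 at a pair of starts. They were searched over the 250 bases before the start, on both strands, for CAAGGTCA, CAAGGCCA and AGGTCA, forms of the site that Nr5a1 and its relatives bind, and for TGACGTCA, the cyclic AMP response element. AGGTCA forms the end of CAAGGTCA. The 30 bases around each match are printed with the motif in capitals.
Cyp11a1: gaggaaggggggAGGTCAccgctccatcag
Lhcgr: ggccacagtcccAGGTCAaggagaacaggg
The Cyp11a1 site is at chr9:58014912-58014941 on the plus strand, with AGGTCA beginning 28 bases before the RefSeq start, and the Lhcgr site is at chr17:88792119-88792148 on the minus strand, with AGGTCA beginning 122 bases before it. AGGTCA is in 14.02% of all 32851 promoters of the same length. The longer motifs were not found in the 8 member promoters, and are in 1.33%, 1.99% and 1.55% of all promoters in the order given. Star, Cyp17a1 and Nr5a1 had no entry.

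Insl3 had the highest level per length of transcript, with a mean of 100 FPKM ± 52.2 (SD over 9 testes) and a range from 31.6 to 173. Hsd3b1 followed at 38.2 ± 6.44, Hsd3b6 at 22.1 ± 9.62, Cyp11a1 at 21.9 ± 12.1, Cyp17a1 at 19.2 ± 19.7, Nr5a1 at 16.5 ± 1.71, Star at 13.05 ± 9.47, Srd5a1 at 6.39 ± 1.38, Lhcgr at 1.81 ± 0.236 and Hsd17b3 at 1.68 ± 0.830 FPKM. Of neighbours in this order, Srd5a1 (lowest testis 5.02 FPKM) and Lhcgr (highest 2.12) had ranges that did not overlap. The ranges of every other neighbouring pair overlapped. Hsd17b3, the testosterone-making step, had the lowest mean, with 20 to 90 counts per testis.

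The members differed widely in how much they varied between testes. The SD of log2 CPM over the 9 testes had a median of 0.74 over the members and of 0.19 over the 14474 genes with a mean of at least 1 CPM. Cyp17a1 was the most variable, and its highest testis had 21.2 times the CPM of its lowest. Nr5a1 was the least variable, with a highest testis 1.29 times the lowest. The plot of CPM by genotype shows both kinds.

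**Figure D1:**
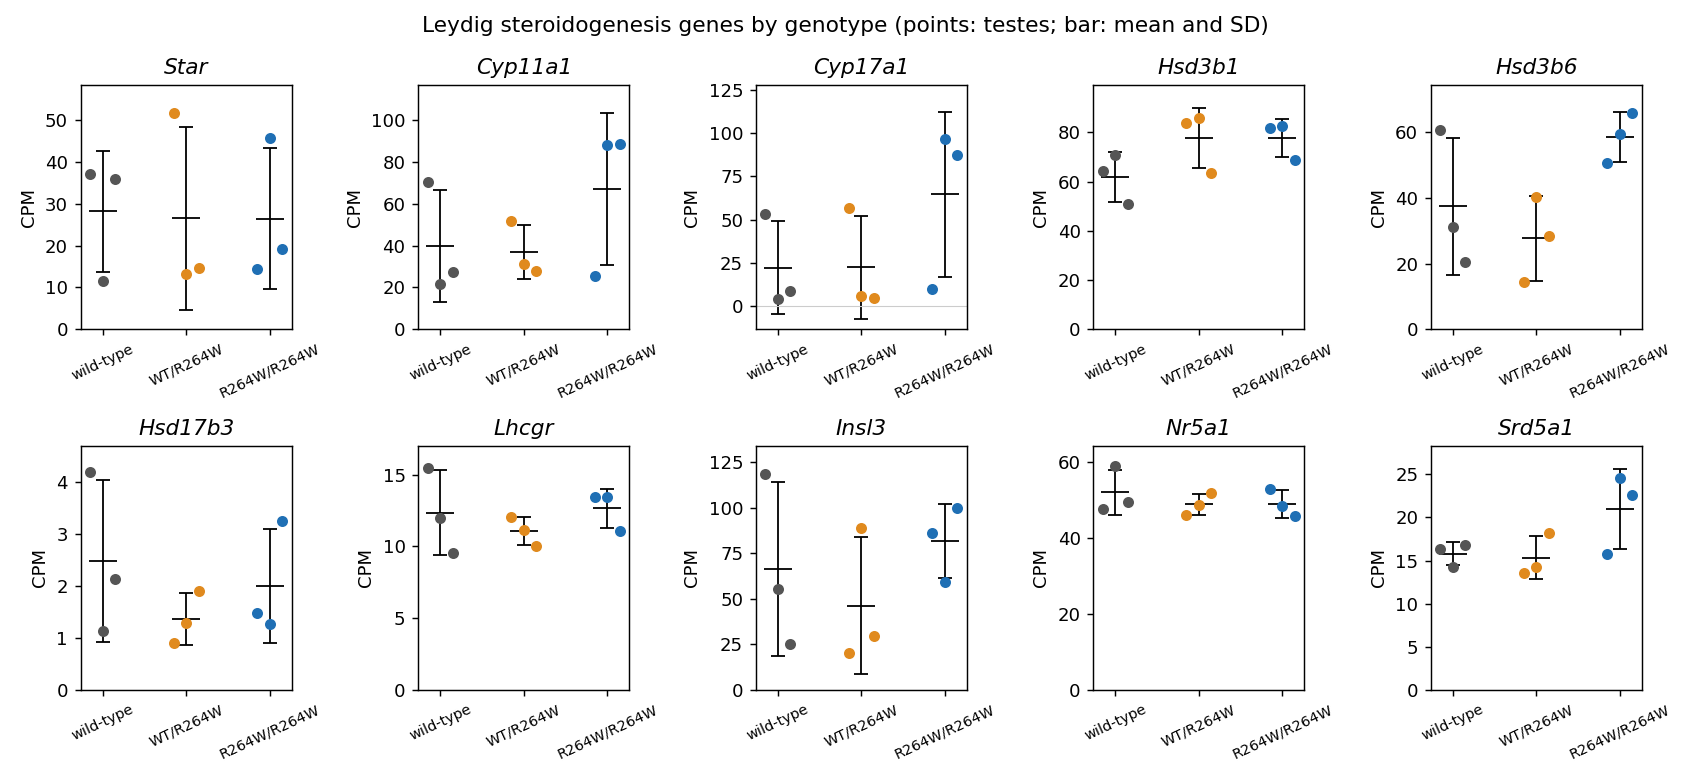
CPM (y axes, linear) of the 10 Leydig steroidogenesis genes in 3 testes of each genotype, with 1 point for each testis and a bar for the mean and SD of each genotype. Cyp17a1 was above 50 CPM in 1 wild-type testis, 1 heterozygote and 2 homozygotes and at most 10.1 CPM in the other 5, while Nr5a1 stayed between 45.8 and 58.8 CPM.

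Cyp17a1, whose hydroxylase and lyase activities turn C21 steroids into androgens, had 53.4, 4.55 and 9.17 CPM in wild-type testes 1, 2 and 3. Heterozygotes 1, 2 and 3 had 56.8, 5.81 and 4.99 CPM, and homozygotes 1, 2 and 3 had 10.1, 96.7 and 87.4 CPM. Each genotype thus held testes at a high and at a low level, with no testis between 10.1 and 53.4 CPM, and the genotypes overlapped.

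Cyp11a1, the side chain cleavage enzyme that opens the pathway, had 70.3, 21.4 and 27.3 CPM in wild-type, in the same order of replicates. Heterozygotes had 51.8, 31.3 and 28.02 CPM, and homozygotes 25.2, 88.0 and 88.6 CPM. The 4 testes that were high for Cyp17a1 were also the 4 highest for Cyp11a1. Over the 9 testes the log2 CPM of both genes had a Pearson r of 0.95, given as a description because both values come from the same libraries.

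Star, the cholesterol carrier whose transcription luteinizing hormone raises, had 37.1, 11.5 and 36.0 CPM in wild-type. Levels of Star were 51.8, 13.1 and 14.8 CPM in heterozygotes, and 14.4, 45.7 and 19.3 CPM in homozygotes. Star was low in Piwil4 R264W/R264W testis 3 and high in wild-type testis 3, which is where it parted from Cyp17a1 (r = 0.73 over 9 testes).

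Insl3, the peptide hormone that guides testis descent, had 119, 55.4 and 25.05 CPM in wild-type. Heterozygotes had 20.1, 89.2 and 29.6 CPM of Insl3, and homozygotes 86.2, 59.4 and 99.7 CPM. Its lowest testis, Piwil4 WT/R264W testis 1, was the highest for Star and 1 of the 4 high testes for Cyp17a1. Insl3 had an r of -0.34 with Star and of 0.19 with Cyp17a1 over the 9 testes.

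Hsd3b6, the 3 beta-hydroxysteroid dehydrogenase of adult Leydig cells, had 60.8, 31.0 and 20.4 CPM in wild-type. Levels of Hsd3b6 were 14.4, 40.4 and 28.3 CPM in heterozygotes, and 50.6, 59.6 and 65.9 CPM in homozygotes. Hsd3b6 therefore took the order of Insl3 (r = 0.91), with the same lowest testis, and not that of Cyp17a1 (r = 0.34). Hsd3b1, the form shared by fetal and adult Leydig cells, kept between 50.9 and 85.8 CPM and had an r of 0.18 with Hsd3b6. Hsd17b3 had 4.18, 1.13 and 2.12 CPM in wild-type, 0.897, 1.28 and 1.89 CPM in heterozygotes, and 1.48, 1.27 and 3.24 CPM in homozygotes. Its highest testes were wild-type testis 1 and Piwil4 R264W/R264W testis 3, the highest for Insl3 as well.

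Lhcgr kept between 9.56 and 15.4 CPM, Nr5a1 between 45.8 and 58.8 CPM and Srd5a1 between 13.5 and 24.6 CPM over the 9 testes. Nr5a1 and Lhcgr varied least of the members, with the highest testis at 1.29 and 1.62 times the lowest, and in all 3 genes the genotypes overlapped. Nr5a1 is also made by Sertoli cells, so its level is not that of Leydig cells alone.

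The comparison of homozygotes with wild-type mice asks whether the R264W allele changes these genes. In the quasi-likelihood test of edgeR, adjusted by Benjamini-Hochberg over 15543 genes, 0 of 10 members had an adjusted p under 0.05, as did 0% of all genes. At an unadjusted p under 0.05 there were 0 of 10 members and 1.26% of all genes. By DESeq2 2 members and 138 of 15543 genes had an unadjusted p under 0.05, and 0 members an adjusted one. Without wild-type testis 1, 4 members and 1164 of 15655 genes had an unadjusted p under 0.05 in edgeR, and 0 after adjustment. The median log2 fold change was 0.31 over the members and -0.01 over all genes, with 7 members positive, and 0.17 over the members without wild-type testis 3. Cyp17a1 had the largest value, 1.53 ± 1.11 (SE), with means of 64.7 ± 47.6 CPM (SD, n = 3) among homozygotes and 22.4 ± 27.0 in wild-type. With 1 testis left out its log2 value ran from 1.06 to 3.24, the highest without wild-type testis 1. The groups overlapped for all 10 members, against 5.58% of all genes without overlap.

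Homozygotes and heterozygotes differ by 1 copy of the allele. Of 10 members 0 had an adjusted p under 0.05 in edgeR, against 0% of 15463 genes. Hsd3b6 was the 1 member with an unadjusted p under 0.05, against 2.22% of all genes. By DESeq2 2 members and 278 of 15463 genes had an unadjusted p under 0.05, and 0 members an adjusted one. The means of Hsd3b6 were 58.7 ± 7.67 CPM (SD, n = 3) among homozygotes and 27.7 ± 13.02 CPM among heterozygotes. The log2 difference was 1.09 ± 0.35 (SE, edgeR adjusted p = 0.948). Its groups did not overlap, which was so for 7.06% of all genes. Over all alternatives the log2 difference of Hsd3b6 lay between 0.78 and 1.46 and its adjusted p between 0.440 (DESeq2) and 0.9999. Cyp17a1 differed by 1.52 ± 1.14, Cyp11a1 by 0.86 ± 0.48 and Insl3 by 0.83 ± 0.54, each with an adjusted p of 0.948 in edgeR. Without Piwil4 WT/R264W testis 1 the value of Cyp17a1 was 3.59. The median over the members was 0.50 and that over all genes 0.01. Scaled on 12 Sertoli cell markers the median of all genes moved to 0.22 and the members lay 0.51 above it. This scaling, here and below, uses the summed counts of the 12 markers, most of which come from Clu. Clu had a mean of 1168 CPM, where the sum lay between 1328 and 2083 CPM. The round spermatid genes were higher in homozygotes by a median of 0.63, with 18 of 18 positive, and 11 of 12 Sertoli markers were lower, by a median of 0.19 over the list, none of them with an adjusted p under 0.05. Their part in the difference of Hsd3b6 was not tested beyond the fit with the score given below.

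Heterozygotes and wild-type mice were compared in the same way. Of 10 members 0 had an adjusted p under 0.05 in edgeR (0% of 15413 genes). An unadjusted p under 0.05 was found for 0 members in edgeR (1.11% of all genes) or DESeq2 (108 of 15413 genes). The median was -0.10 over the members and -0.02 over all genes, and turned to 0.14 for the members without wild-type testis 1. Scaled on the Sertoli markers the median of all genes moved to -0.21, and the members lay a further 0.21 below it. Markers of other cells also lay to one side. All 16 round spermatid genes tested were lower in heterozygotes, by a median of 0.45, all 8 spermatocyte markers were lower, and all 12 Sertoli markers were higher, with a median of 0.14 and none with an adjusted p under 0.05 in edgeR. Of the members 9 of 10 were negative, and the part of these markers in them was not tested. Hsd17b3 had the largest difference, -0.88 ± 0.53 (SE), with means of 1.36 ± 0.502 CPM (SD, n = 3) among heterozygotes and 2.47 ± 1.55 in wild-type. No member's groups were without overlap, against 5.36% of all genes. These 3 comparisons share their libraries pairwise, so their values stand side by side and are not independent of each other.

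**Figure D2:**
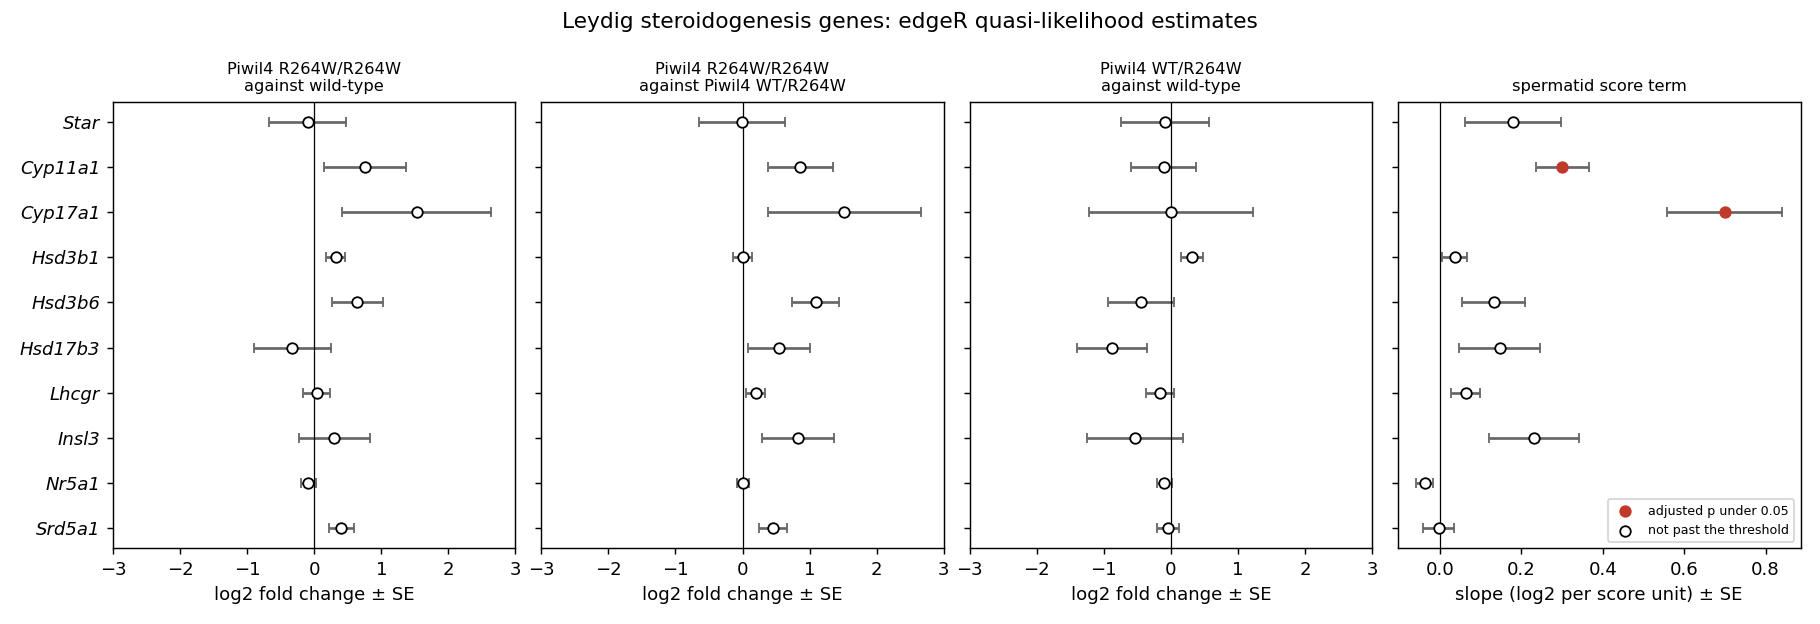
Log2 fold change (left 3 panels) or slope in log2 per unit of round spermatid score (right panel) of the 10 members by edgeR's quasi-likelihood test, with horizontal bars for 1 SE and filled points where the adjusted p was under 0.05. No member is filled in the genotype panels, where the SE of Cyp17a1 exceeds 1, and Cyp11a1 and Cyp17a1 are filled in the right panel.

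With the round spermatid score as a covariate the adjusted p stayed over 0.05 for all 10 members in all 3 comparisons in edgeR. Between homozygotes and wild-type mice 5 of 10 members then had an unadjusted p under 0.05, all higher in homozygotes, against 4.88% of all genes. They were Cyp17a1 (log2 difference 1.56 ± 0.48, SE), Hsd3b6 (0.62 ± 0.13), Cyp11a1 (0.60 ± 0.26), Srd5a1 (0.37 ± 0.15) and Hsd3b1 (0.32 ± 0.11). Their smallest adjusted p in edgeR was 0.430, for Hsd3b6. The 5 are not independent of each other, as Cyp17a1 and Cyp11a1 had an r of 0.95 over the 9 testes. The fit with the covariate was not repeated with 1 testis left out. Between homozygotes and heterozygotes Hsd3b6 (1.13 ± 0.32) and Srd5a1 (0.47 ± 0.20) had an unadjusted p under 0.05, 2 of 10 members against 2.96% of all genes. Between heterozygotes and wild-type mice it was Hsd3b1 alone (0.33 ± 0.13), 1 of 10 against 2.03%.

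Ratios of members within a testis do not depend on the scaling of the libraries. Hsd3b6 to Hsd3b1 gives the adult form of the enzyme against the form of both cell generations. The log2 FPKM ratio was -0.04, -1.16 and -1.28 in wild-type, -2.51, -1.05 and -1.13 in heterozygotes, and -0.66, -0.43 and -0.02 in homozygotes. All 3 homozygotes lay above all 3 heterozygotes, with means of -0.37 ± 0.32 and -1.56 ± 0.82 (SD, n = 3). The difference of 1.20 had an exact two-sided permutation p of 0.1, the smallest that 3 against 3 testes can give. Against the wild-type mean of -0.83 ± 0.69 the homozygotes overlapped (difference 0.46, exact permutation p = 0.3), and heterozygotes and wild-type differed by -0.74 (exact permutation p = 0.6).

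Cyp17a1 to Cyp11a1 sets the androgen branch against the entry step. The FPKM ratio was between 0.885 and 1.27 in the 4 testes with high Cyp17a1 and between 0.206 and 0.454 in the other 5. Its log2 difference between homozygotes and wild-type was 0.99 (exact permutation p = 0.2). Insl3 to Star had the widest range, from 1.06 in Piwil4 WT/R264W testis 1 to 33.6 in Piwil4 R264W/R264W testis 1. The exact permutation p of Insl3 to Star was 0.6, 0.6 and 0.8 in the 3 genotype comparisons, and that of Hsd17b3 to Srd5a1 lay between 0.2 and 1. In all, 12 differences of ratios were tested, with Benjamini-Hochberg adjusted p between 0.72 and 1, and with 3 testes a group none could reach 0.05.

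**Figure D3:**
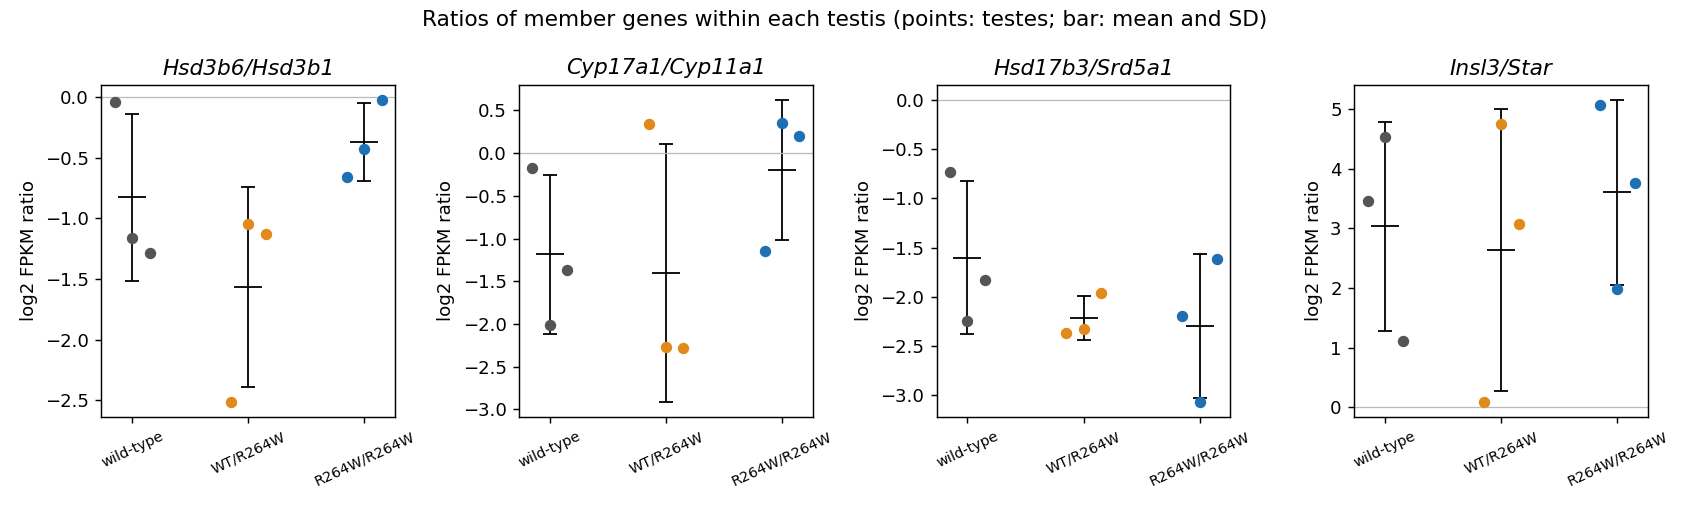
Log2 FPKM ratio (y axes) of 4 pairs of members within each testis, by genotype, with points for testes and bars for the mean and SD of 3 testes. For Hsd3b6/Hsd3b1 the Piwil4 R264W/R264W testes sit between -0.66 and -0.02, above all Piwil4 WT/R264W testes, and for the other pairs the genotypes overlap.

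The score served to ask how the members follow the progress of the germ cells. Ordered by score, the testes were Piwil4 WT/R264W 3 (0.48), wild-type 3 (1.01), Piwil4 R264W/R264W 1 (2.03), wild-type 2 (2.29), Piwil4 WT/R264W 2 (3.21), Piwil4 R264W/R264W 2 (3.41), Piwil4 WT/R264W 1 (4.77), Piwil4 R264W/R264W 3 (5.61) and wild-type 1 (5.81). The 4 testes with the highest scores were the 4 with Cyp17a1 above 50 CPM and the 4 with the most Cyp11a1. Between the neighbours Piwil4 WT/R264W 2 and Piwil4 R264W/R264W 2, whose scores differ little, Cyp17a1 went from 5.81 to 96.7 CPM.

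In a fit of all 9 libraries with genotype and score, 2 of 10 members rose with the score and 0 fell, where 17.4% of 15771 genes rose and 8.2% fell. Cyp17a1 rose by 0.70 ± 0.14 (SE) on the log2 scale for each unit of the score (edgeR adjusted p = 0.00304). Cyp11a1 rose by 0.30 ± 0.065 (edgeR adjusted p = 0.00503). The share of 2 in 10 is near that background. Without wild-type testis 1, the testis with the highest score, 0 of 10 members were called, although the slopes were 0.71 for Cyp17a1 and 0.25 for Cyp11a1 (edgeR adjusted p = 0.0522 and 0.101). Without the 2 testes farthest from the median score, Piwil4 WT/R264W 3 and wild-type 1, 0 were called either, with slopes of 0.76 and 0.37 (edgeR adjusted p = 0.270 and 0.175).

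Insl3 had a slope of 0.23 ± 0.11 (edgeR adjusted p = 0.141), Star 0.18 ± 0.12 (0.277), Hsd17b3 0.15 ± 0.10 (0.295), Hsd3b6 0.13 ± 0.077 (0.223) and Lhcgr 0.063 ± 0.035 (0.207), the values in brackets being edgeR adjusted p. The slopes of Hsd3b1 (0.036), Srd5a1 (-0.0037) and Nr5a1 (-0.038) were the nearest to 0. Without Piwil4 WT/R264W testis 1, where Insl3 and Hsd3b6 were lowest, 4 members were called, with Insl3 at 0.34 (edgeR adjusted p = 0.00218) and Hsd3b6 at 0.23 (edgeR adjusted p = 2.2e-04) added. The median slope was 0.14 over the members, with 8 positive, and -0.01 over all genes, and was 0.03 over the members without wild-type testis 1. Scaled on Sertoli markers, 3 members rose, Insl3 among them, and the split over all genes went from 2744 rising and 1294 falling to 2570 rising and 37 falling.

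**Figure D4:**
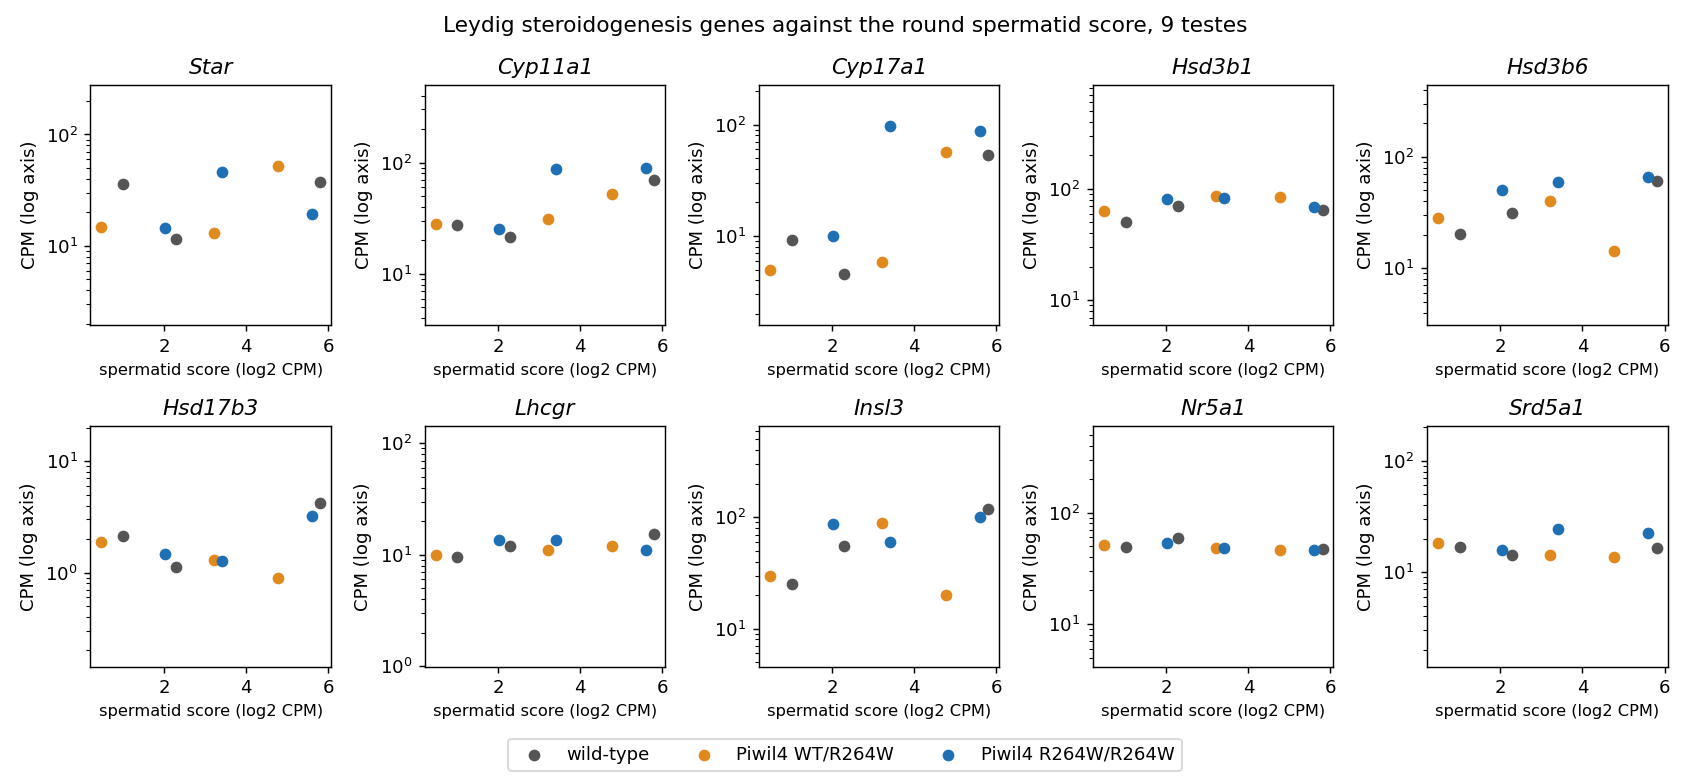
CPM (y axes, log scale, each panel spanning the same range of folds) of each member against the round spermatid score (x axes, log2 CPM) in the 9 testes, coloured by genotype. Cyp17a1 and Cyp11a1 are high in the 4 testes with scores of 3.41 and above, Insl3 and Hsd3b6 drop in the Piwil4 WT/R264W testis at 4.77, and Nr5a1 is level.

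Markers of adult Leydig cells were followed in a list of 9 genes, of which 7 passed the filter on low counts. With the score, 2 of 7 rose and 0 fell, where 17.4% of all genes rose. Prlr, the prolactin receptor, rose by 0.09 ± 0.029 (SE) per unit (edgeR adjusted p = 0.0356) and Klk1b27, a kallikrein, by 0.33 ± 0.10 (edgeR adjusted p = 0.0311). Klk1b21, Klk1b24 and Klk1b27 are near copies whose reads may be split. The median slope over the 7 was 0.15, with 6 positive. The count of 2 became 0 without wild-type testis 1 or 3 or Piwil4 R264W/R264W testis 2 or 3, 1 without wild-type testis 2 or Piwil4 WT/R264W testis 3, and 5 without Piwil4 WT/R264W testis 1. In the last of these fits 3394 of 15990 genes rose and 2720 fell.

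Between homozygotes and heterozygotes 0 of 7 adult markers had an adjusted p under 0.05 in edgeR, and 4 an unadjusted p under 0.05, against 2.22% of all genes. They were Klk1b27 (log2 difference 1.75 ± 0.39, SE), Prlr (0.66 ± 0.16), Klk1b24 (1.58 ± 0.50) and Fabp3 (0.93 ± 0.39), the last a fatty acid binding protein. Prlr had 16.9, 19.4 and 13.8 CPM in heterozygotes, and 25.7, 23.6 and 29.5 CPM in homozygotes. These groups did not overlap, which was so for 7.06% of all genes. All 7 were positive with a median of 0.93, and all 7 were positive between homozygotes and wild-type, with a median of 0.50 and 0 of 7 at an unadjusted p under 0.05. Markers of other cells were on the same side. Of the adipose markers 5 of 5 tested were positive against heterozygotes, with a median of 1.33, and 6 of 6 against wild-type, with a median of 0.80, and 7 of 7 macrophage markers were positive in both, with medians of 0.16 and 0.19. None of these had an adjusted p under 0.05 in edgeR, and their part in the adult Leydig markers was not tested. Fabp3 was lowest in Piwil4 WT/R264W testis 1 at 8.39 CPM, as Insl3 and Hsd3b6 were, and had an r of 0.97 with Insl3 and of 0.96 with Hsd3b6 over the 9 testes.

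Markers of Leydig progenitors, the spindle-shaped stromal cells from which adult Leydig cells arise, ran the other way, as did those of some other cells. With the score 4 of 8 fell and 0 rose, where 8.2% of all genes fell, and all 8 slopes were negative with a median of -0.10. Slopes were also negative for 11 of 12 Sertoli markers (median -0.064) and 5 of 6 spermatogonia markers (median -0.068). The fall was therefore not particular to progenitors. Scaled on Sertoli markers none of the 8 was called, while all 8 slopes stayed negative, as did 5 of 6 for spermatogonia. Tcf21, a transcription factor of these cells, fell by 0.10 ± 0.028 (SE, edgeR adjusted p = 0.0197). Gli1 and Ptch1, targets of the hedgehog signal that Sertoli cells send, fell by 0.15 ± 0.047 (edgeR adjusted p = 0.0304) and 0.097 ± 0.030 (edgeR adjusted p = 0.0312), and Nr2f2 by 0.13 ± 0.044 (edgeR adjusted p = 0.0438). The count of 4 became 0 without wild-type testis 1 or 3 or Piwil4 R264W/R264W testis 3, and 1 without Piwil4 R264W/R264W testis 1. In the genotype comparisons 0 of the progenitor markers had an adjusted or an unadjusted p under 0.05 in edgeR or DESeq2.

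**Figure D5:**
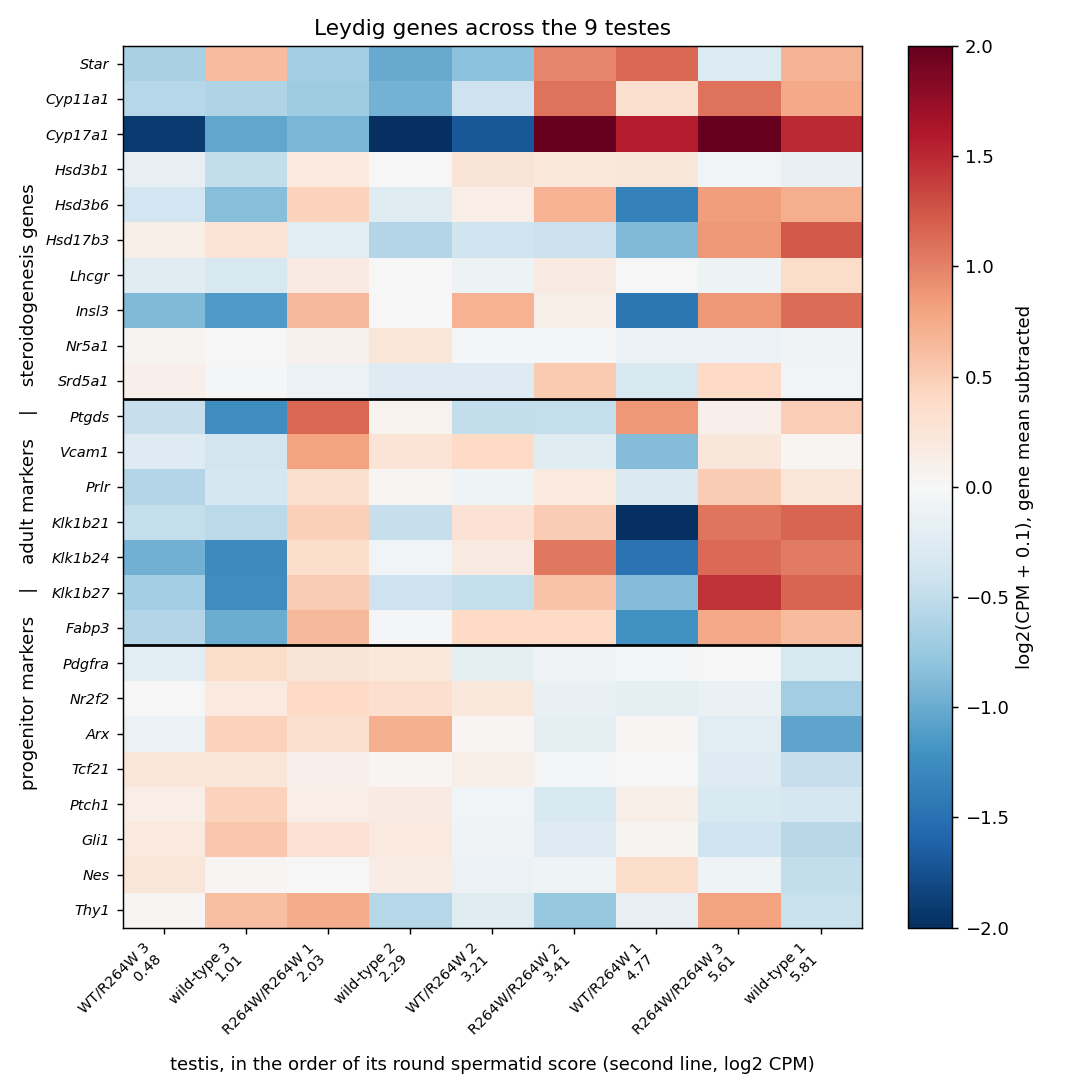
Log2(CPM + 0.1) of the members, 7 adult Leydig markers and 8 Leydig progenitor markers (rows, each gene's mean subtracted, colour scale cut at -2 and 2) in the 9 testes, ordered from left to right by round spermatid score. Cyp17a1 and Cyp11a1 are above their mean in the 4 testes on the right, and the Piwil4 WT/R264W testis at 4.77 is below the mean for Insl3, Hsd3b6, Fabp3 and the Klk1b genes.

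The supply of cholesterol was followed in 16 genes, of which 4 rose with the score and 1 fell, where 17.4% of all genes rose and 8.2% fell. The counts of the other lists below are read against the same shares. Among those that rose, Cyp51 (0.24 ± 0.034 per unit, SE, edgeR adjusted p = 1.6e-04) and Sqle (0.12 ± 0.022, edgeR adjusted p = 0.00188) are enzymes of sterol synthesis, and Lipe (0.25 ± 0.039, edgeR adjusted p = 4.0e-04) is a lipase that frees cholesterol from its esters. Cyp51 and Lipe are also made by germ cells. Stard4, a cholesterol carrier, fell by 0.068 ± 0.022 (edgeR adjusted p = 0.0394), a call that ended with DESeq2's size factors or Sertoli scaling. The median slope over the 16 was -0.01. Of the electron donors of the P450 enzymes, Fdx1, Fdxr, Por and Cyb5a, 1 of 4 fell, Cyb5a by 0.089 ± 0.022 (edgeR adjusted p = 0.0113), and with Sertoli scaling none did. Among 8 other androgen enzymes that passed the filter 0 rose and 0 fell by edgeR or DESeq2 after adjustment, and 1 (Hsd17b12, slope -0.077) had an unadjusted p under 0.05. Of 19 regulators and receptors 1 rose (Prlr) and 4 fell (Nr2f2, Wt1, Ptch1 and Gli1), with none falling under Sertoli scaling. The lists share genes, and these calls are all counted in another list too. Prlr is also an adult Leydig marker, Nr2f2, Ptch1 and Gli1 are progenitor markers, and Wt1 is a Sertoli marker. In the 3 genotype comparisons 0 genes of these 4 lists had an adjusted p under 0.05, and 5 genes an unadjusted p under 0.05 in edgeR, all positive, where 1.26%, 2.22% and 1.11% of all genes had one in the order of the comparisons above. Among them were Fdxr and Amhr2 between homozygotes and wild-type, and Prlr and Igf1 between homozygotes and heterozygotes.

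Cells and tissues that share steroid enzymes were looked for by their own markers. Of 6 adrenal cortex markers Cyp11b2, which makes aldosterone, was at 0 in 8 of 9 testes, and the ACTH receptor Mc2r in 7 of 9, where a count of 0 allows up to 3 counts or 0.122 to 0.171 CPM, counting error only. Cyp11b1 had at most 8 counts and Cyp21a1 at most 10. The summed level of the 6 lay between 2.20 and 5.70 CPM, most of it Mrap, which rose with the score by 0.29 ± 0.090 (SE, edgeR adjusted p = 0.0312). Of 12 Sertoli markers 1 rose (Rhox5) and 2 fell (Wt1 and Fshr) with the score, 11 slopes were negative, and their sum was lowest in wild-type testis 1 at 1328 CPM and highest in Piwil4 WT/R264W testis 1 at 2083 CPM. The 12 markers cannot be judged under the scaling that is set on them. Of 7 macrophage markers 1 rose (Csf1r) with the score, and of 6 peritubular myoid markers 1 (Actg2, by 0.67 ± 0.040, SE). Actg2 stood apart from its list, where 4 of 6 slopes were negative and the median was -0.016. Of 6 endothelial markers 0 rose or fell, none of them at an unadjusted p under 0.05 in edgeR or DESeq2. Of the adipose markers 6 of 6 tested had positive slopes, with a median of 0.25, 0 of them called after adjustment and 2 at an unadjusted p under 0.05 in edgeR or DESeq2. The part of these cells in the values of the members was not tested. Of 3 fetal Leydig markers 2 passed the filter and 0 were called in edgeR, with 1 at an unadjusted p under 0.05, Thbs2 at a slope of -0.19 ± 0.067 (SE, edgeR adjusted p = 0.0524), and 1 called by DESeq2.

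The genes most like the mean of the members were found by Pearson's r over the 9 testes between each gene's log2 CPM and the mean of the members' centred values, over 14464 other genes with a mean of at least 1 CPM. That mean followed Cyp11a1 (r = 0.94) and Cyp17a1 (r = 0.90) most closely. Next came Hsd3b6 (0.69), Srd5a1 (0.64), Lhcgr (0.62), Insl3 (0.55), Hsd17b3 (0.53) and Star (0.50), then Hsd3b1 (0.15) and Nr5a1 (-0.63). The genes found need therefore not be like all 10 members. The first 10 were Slc13a4 (r = 0.94), Zfp618 (0.93), Pnma2, Mcts2, Prkcz, Odc1, Liph, Parp11, Wdr20 and Rp2 (0.91). Slc13a4, a sulfate transporter, had between 1.42 and 3.897 CPM, and Odc1, ornithine decarboxylase, between 401 and 514 CPM. Of the 10, 6 also rose with the score in edgeR, so likeness to this mean and to the score cannot be told apart in 9 testes.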

How the data were processed

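Whole testes were lysed in TRIzol and mRNA libraries were sequenced as 150 bp paired reads, per the study's methods. The submitters' processing notes name fastp 0.18.0, StringTie 1.3.1, DESeq2 and the build mm39. The aligner, annotation, counting tool and use of strand are not given in the sources used here. The authors deposited estimated counts, of which 89.17% are whole numbers, and FPKM, normalized for length and depth.

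Counts were rounded and tested with edgeR 4.0.16 (quasi-likelihood, TMM, filterByExpr, Benjamini-Hochberg over all genes tested) in R 4.3.3, in 6 libraries for each pair of genotypes and in all 9, with genotype, for the score. CPM and the score used TMM, the score with a prior count of 1. Alternatives were DESeq2 1.42.0, limma 3.58.1 on log2(FPKM + 0.1) and log2(FPKM + 1), other scalings and filters, and leaving out each library. The fits were tested on simulated data, where both recovered the changed genes and the pairwise fit made more false calls than its nominal rate. The data simulated for the pairwise fit held no differences in germ cell stage between testes. They therefore do not give the power of that fit in these testes. No libraries held identical values. For coordinates, 99.5% of the gene IDs matched GENCODE M21 of GRCm38, whose coordinates are printed. These are not those of mm39.

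The members and gene lists were chosen with earlier results of these data known. Named were all members, from every other list the 2 genes with the smallest unadjusted p in each test and the gene with the highest mean CPM, and the 10 genes most like the mean of the members. Klk1b24, Fabp3, Klk1b21, Sqle, Stard4, Nr2f2, Cyp11b1, Hsd3b2, Hsd3b3, Jak3 and Piwil4 were named after their values were seen, as were the pairs of genes whose r is given. Some genes of the lists are counted but not reported by name here.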

Additional observations from a re-analysis of the deposited data

How the results depend on the processing

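In the 3 genotype comparisons 0 of 10 members had an adjusted p under 0.05 under every alternative run, while over all genes DESeq2 called 2 between homozygotes and wild-type, 6 between homozygotes and heterozygotes and 0 between heterozygotes and wild-type, where edgeR called 0. At an unadjusted p under 0.05 between homozygotes and heterozygotes, 4 members passed with Sertoli scaling, all higher in homozygotes. Of 15463 genes 502 passed, 484 of them higher in homozygotes, as that scaling moved the median of all genes to 0.22.

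For the score, 2 members were called in edgeR, 1 (Insl3) with a spermatocyte score in its place, whose median slope of 1.66 is in another unit, and 0 without the 2 testes farthest from the median. Leaving out 1 testis gave 0 to 4 members, 0 to 5 adult Leydig markers and 0 to 6 progenitor markers. DESeq2 called 1 adult marker, and without the 2 farthest testes 0 markers of either list were called. Over all genes 2744 rose and 1294 fell in edgeR, and calls numbered 2607 with Sertoli scaling, 1033 without the 2 farthest testes and 2020 to 6114 with 1 testis left out, the lowest without wild-type testis 1 and the highest without Piwil4 WT/R264W testis 1. With limma on log2(FPKM + 1) 2096 genes rose and 2512 fell.

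Deviations from group means had an r of -0.757 to 0.792 over 9 same-numbered pairs, so testes of the same number were not alike throughout. Pairs of different numbers were not compared, and the testes differ in germ cell stage. Whether the numbers pair the testes is therefore not settled by these values. A fit with the replicate number as a block left the counts of members called at 0, 0, 0 and 2, and called 3217 genes, 0 adult and 1 progenitor markers for the score.

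Signs turned as follows, in no case for a value past the threshold, and the cause was not tested. Between heterozygotes and wild-type, Cyp11a1 was 0.098 and 0.087 with limma (pseudocounts 0.1 and 1), 0.032 with the replicate block and 0.070 with the score covariate, and Cyp17a1 0.0075 with all 9 libraries, 0.0095 unfiltered and 0.14 with the covariate. Between homozygotes and heterozygotes, Hsd3b1 was -0.00077 with all 9 libraries, -0.028 with limma at either pseudocount, -0.0016 unfiltered and -0.016 with the covariate. Nr5a1 was -0.028 and -0.026 with limma. Star was 0.0047 with DESeq2, 0.0041 with its size factors, 0.32 with Sertoli scaling, 0.090 and 0.079 with limma and 0.15 with the block. The Hsd17b3/Srd5a1 ratio was 0.056 from counts. For the score without the 2 farthest testes, Hsd3b1 was -0.022, Insl3 -0.014, Lhcgr -0.025 and Srd5a1 0.070. Nr5a1 was 0.0098 with Sertoli scaling. Srd5a1 was 0.00037 with DESeq2, 0.00090 with its size factors, 0.043 with Sertoli scaling, 7.4e-05 with at least 10 counts in every library, 0.038 with the block and 0.026 without genotype.

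With 1 testis left out, ranges that crossed 0 between homozygotes and wild-type were -0.86 to 0.28 for Hsd17b3, -0.086 to 1.02 for Insl3, -0.11 to 0.23 for Lhcgr, -0.14 to 0.024 for Nr5a1 and -0.74 to 0.21 for Star. Between homozygotes and heterozygotes they were -0.12 to 0.077 for Hsd3b1, -0.049 to 0.054 for Nr5a1 and -0.65 to 0.93 for Star. Between heterozygotes and wild-type they were -0.43 to 0.61 for Cyp11a1, -2.06 to 1.72 for Cyp17a1, -0.80 to 0.10 for Hsd3b6, -1.40 to 0.20 for Insl3, -0.32 to 0.036 for Lhcgr, -0.15 to 0.029 for Nr5a1, -0.19 to 0.035 for Srd5a1 and -1.02 to 0.26 for Star. For the score they were -0.0048 to 0.26 for Hsd17b3, -0.0027 to 0.066 for Hsd3b1, -0.0050 to 0.23 for Hsd3b6 and -0.042 to 0.036 for Srd5a1. The ratio Cyp17a1/Cyp11a1 ran from -1.09 to 0.29 between heterozygotes and wild-type, Hsd17b3/Srd5a1 from -0.41 to 0.31 between homozygotes and heterozygotes, and Insl3/Star from -0.39 to 1.38, -0.31 to 2.02 and -1.45 to 0.88 in the order of the comparisons.

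Counts per testis limit Hsd17b3 most, at 20 to 90. Between homozygotes and wild-type a difference of 1 on the log2 scale would be smaller than the SE of Cyp17a1, 1.11.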
